A study of Mus musculus with 24 samples.

Results

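The proteasome subunit genes of the mouse were followed here as 1 group. They are the protein-coding genes of the GENCODE annotation for mm10 whose symbols begin with Psma, Psmb, Psmc, Psmd, Psme, Psmf or Psmg, which gave 50 of 21938 protein-coding genes. By their known roles, 7 encode constitutive alpha subunits and 7 constitutive beta subunits of the core particle, 5 encode tissue-specific core subunits, 6 encode ATPases and 11 encode other subunits of the regulatory particle. A further 3 encode assembly chaperones of the regulatory particle and 4 those of the core, 5 encode activators and 1 (Psmf1) an inhibitor. Psmc3ip also carries the prefix, although its product is a meiotic recombination factor and no proteasome subunit.

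The proteasome is the protease complex that degrades ubiquitin-tagged proteins. Its barrel-shaped core is built from rings of alpha subunits, which form the gate, and rings of beta subunits, some of which carry the peptidase sites. The regulatory particle caps the barrel, where lid and base subunits bind and remove ubiquitin and a ring of ATPases unfolds the substrate and feeds it inward. Red cell precursors discard much of their proteome as they mature, and their proteasomes take part in that clearance.

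Protein interaction profile sequencing (PIP-seq) was carried out in MEL cells, a transformed murine erythroleukemia line that is a cultured model and not primary erythroblasts. All cultures were crosslinked with formaldehyde. Cells were taken untreated at day 0, or after 2 or 4 days in medium with 2% DMSO, an inducer of erythroid differentiation in this line, with 2 replicates at each time point. Each replicate gave footprinting and structure-only libraries (RNase before or after removal of protein), digested either with a nuclease for single-stranded RNA (ssRNase, 100 U/ml RNaseONE) or with one for double-stranded RNA (dsRNase, 2.5 U/ml RNase V1), for 24 libraries in all.

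The measurement was the protein-protected site (PPS), an interval in which footprinting reads were enriched over the structure-only control of the same nuclease. There were 138689 PPSs in the list of day 0, 169575 in that of day 2 and 152513 in that of day 4, and each PPS names the replicate and nuclease of the calls merged into it. The 12 sets of calls held 20927 to 91091 calls each, with the smallest being dsRNase replicate 2 at day 2, and the read depth behind a site is unknown from these lists. Sites of 20 to 40 nt, the size of a ribosome footprint, were left out. The coverage of a gene is the percentage of its exonic nucleotides that lie in PPSs on its own strand, given for each whole list and for the PPSs with a call from each replicate. PPSs of the 2 replicates share merged borders, so the spread between replicates is understated. Among the marker genes checked, each of the 11 erythroid genes carried PPSs in its exons, none of 6 T cell and fibroblast genes did, and 1 of 3 macrophage genes did (Cd68, 4.38% of its exonic nucleotides in both replicates of day 2). The summed coverage of the 11 erythroid genes was 123 and 119 percentage points in the 2 replicates of day 0, 265 and 270 at day 2, and 453 and 350 at day 4.

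With 2 replicates against 2, an exact permutation test cannot give a two-sided p below 0.333, so no p-value was computed. A gene is called higher or lower here when both replicates of one group lay above or below both of the other, and the size of a change is given as the range over the 4 pairs of replicates. Such calls are frequent, and each count is therefore read against the share of 9550 protein-coding genes with any exonic PPS that met the same rule. A covered share can move with the amount of RNA as well as with protein binding, and fewer cells that express a gene and less RNA per cell cannot be told apart in bulk samples. The part played by transcript abundance in the values below was not tested.

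Of the 50 genes, 44 (88.0%) had at least 1 PPS in their exons, against 43.5% of all protein-coding genes, and 42 did so at all 3 days. Their exonic length ranged from 555 to 8382 nt.

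The following sites are shown because they recur in the coding sequence at all 3 days. No coding site of a core or regulatory subunit had calls from both replicates at each of the 3 days with its borders wholly inside the coding sequence. Without that replicate condition, which was dropped after the sites had been seen, 24 stretches in 15 genes recurred, some of them overlapping, and the 2 with the highest summed scores are printed for each particle. The sequences were read from GRCm38 (mm10), on the strand of the transcript from 5′ to 3′. Capitals mark the nucleotides shared by the 3 PPSs, 1 from each day, that define the site, and lower case the rest of their combined extent.
Psma5, chr3:108268033-108268088, plus strand, exon 6: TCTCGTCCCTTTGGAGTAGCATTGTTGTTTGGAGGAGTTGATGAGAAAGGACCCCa
Psma2, chr13:14625349-14625426, plus strand, exon 8: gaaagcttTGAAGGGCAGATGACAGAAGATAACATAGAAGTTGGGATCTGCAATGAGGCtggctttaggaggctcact
Psmc3, chr2:91054982-91055104, plus strand, exon 3: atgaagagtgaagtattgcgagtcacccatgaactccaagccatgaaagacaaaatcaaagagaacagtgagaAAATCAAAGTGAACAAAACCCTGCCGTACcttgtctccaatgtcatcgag
Psmd6, chr14:14116384-14116559, minus strand, exon 4: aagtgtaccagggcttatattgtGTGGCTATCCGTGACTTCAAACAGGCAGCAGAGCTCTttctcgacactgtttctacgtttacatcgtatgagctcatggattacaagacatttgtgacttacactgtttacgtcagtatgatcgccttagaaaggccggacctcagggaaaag

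The Psma5 site kept nearly the same borders throughout, with 55 of its 56 nt covered at all 3 days and deposited scores of 18.3, 55.0 and 23.1. It lies at nucleotides 400 to 455 of the 723-nt coding sequence of this alpha subunit. Calls of both nucleases were held at each day, at day 0 from replicate 2 alone. The Psma2 site lies at nucleotides 589 to 666 of 702, near the stop codon of another alpha subunit, and shared 51 of 78 nt. The Psmc3 site, at nucleotides 172 to 294 of the 1353-nt coding sequence of an ATPase, held only dsRNase calls at every day and shared 29 of 123 nt. The Psmd6 site covers nucleotides 542 to 717 of the 1167-nt coding sequence of a lid subunit, and its 172-nt PPS of day 0 was followed by PPSs of 60 and 86 nt. A further day 2 PPS of 58 nt lies within the same stretch and shares 1 nt with the PPSs of both other days, which is printed in lower case. The GC content of the 4 stretches ranged from 42.3% to 48.2%. Over the coding sequence of all 50 genes, covered positions held 48.2%, 50.2% and 48.3% GC at days 0, 2 and 4, and uncovered positions held 50.3%, 49.7% and 50.2%.

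Exonic coverage of the proteasome genes was lowest at day 2 and partly returned by day 4. The whole lists gave medians over the 50 genes of 11.9%, 8.33% and 10.5% in the order of the days, and medians over the 9550 genes of 6.0%, 5.59% and 6.02%. In single replicates the median of the 50 genes was 8.41% and 8.64% at day 0, 5.15% and 3.88% at day 2, and 8.47% and 6.17% at day 4. The replicates of day 0 thus lay above both of day 2, while 1 replicate of day 4 lay below both of day 0.

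From day 0 to day 2, 25 of the 50 genes (50%) were called lower, against 30.4% of the 9550 genes. Only 4 (8%) were called higher, against 22.3%. The median change was -3.00 percentage points, with -2.59 to -2.03 over the 4 replicate pairs, and -0.45 over all genes. When each gene was divided by the mean coverage of all genes in the same replicate, 24 genes were lower and 7 higher, against 24.4% and 28.1% of all genes. Genes without an exonic PPS cannot be called, and over the 44 genes that have one, the 25 lower are 56.8%.

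From day 2 to day 4, 20 of the 50 genes (40%) were called higher, against 33.8% of all genes, and 4 (8%) were called lower, against 19.3%. Relative to the mean of all genes in the same replicate, 13 of the 50 were higher and 7 lower, against 25.1% and 26.0% of all genes. The share higher was then close to that of all genes. From day 0 to day 4, 15 of the 50 genes (30%) were called lower, against 25.4%, and 6 (12%) were called higher, against 30.8%. The 3 comparisons share their samples, so their counts are not independent of each other. A course of lower at day 2 and then higher at day 4 was met by 14 of the 50 genes (28.0%) and by 14.2% of all genes. In 12 of the 50 genes (24.0%) both later days were lower than day 0, which held for 17.3% of all genes.

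**Figure D1:**
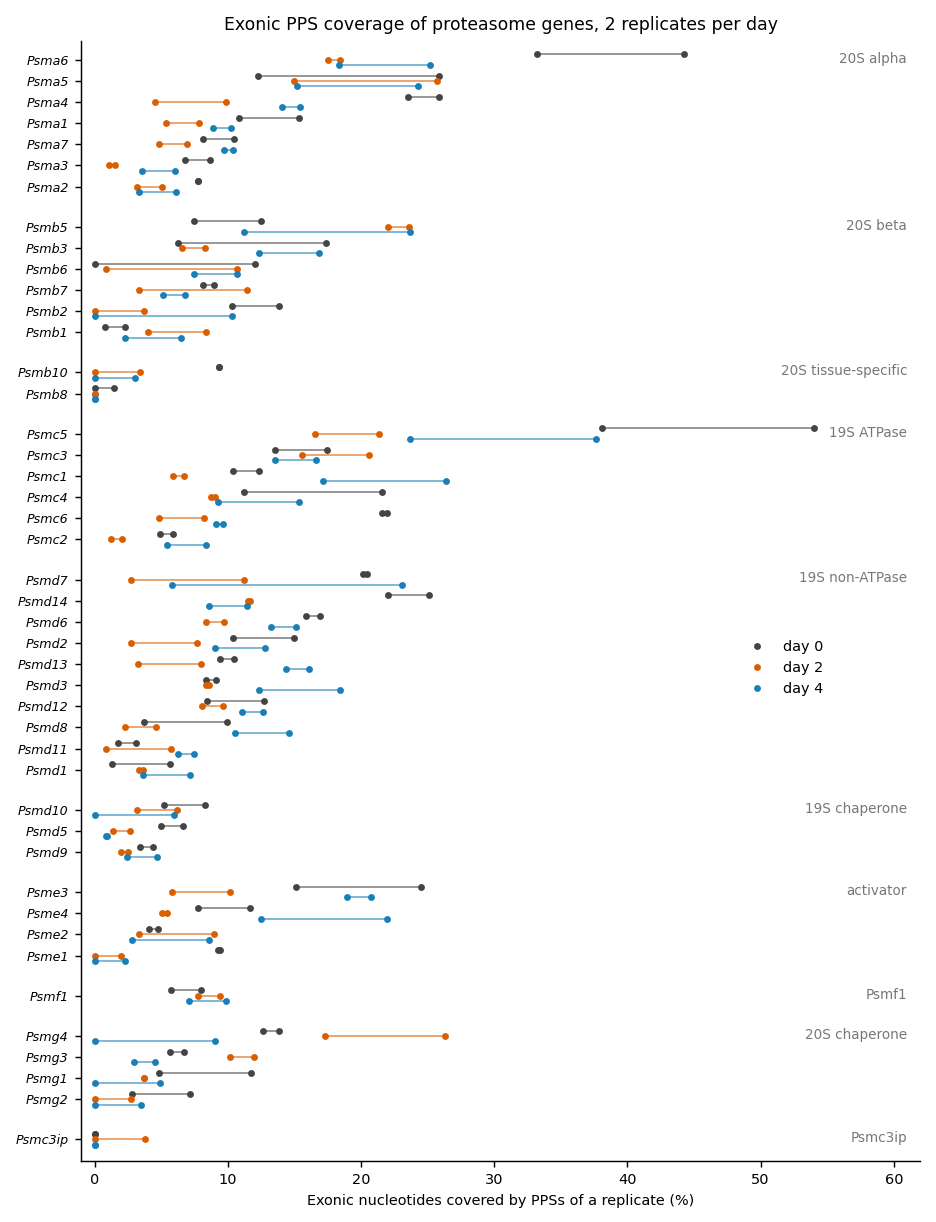
Exonic PPS coverage (percent of exonic nucleotides) of the 44 proteasome genes with an exonic PPS, grouped by role. The 2 joined points of each colour are the 2 replicates of a day, and the day 2 points of most alpha and ATPase genes lie left of day 0.

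Among the alpha subunits of the core, 6 of 7 genes were called lower at day 2 than at day 0 and 5 of 7 were still lower at day 4, against 30.4% and 25.4% of all genes. Psma6 had the highest coverage of the group, with 33.2% and 44.2% in the day 0 replicates, 17.5% and 18.4% at day 2, and 25.2% and 18.3% at day 4. Both later days lay below both day 0 replicates, by 14.8 to 26.7 percentage points at day 2 and by 8.02 to 25.9 at day 4. Psma4 covered 25.9% and 23.5% at day 0, 4.56% and 9.87% at day 2, and 15.4% and 14.1% at day 4, so the 3 days did not overlap. Psma3 covered 8.68% and 6.75% at day 0, 1.10% and 1.54% at day 2, and 3.54% and 6.03% at day 4, the same order at a lower level. Psma5 was the exception in this ring. Its replicates covered 12.3% and 25.9% at day 0, 25.7% and 15.0% at day 2, and 24.3% and 15.2% at day 4, and all days overlapped.

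The constitutive beta subunits showed no common direction, with 2 of 7 called higher and 1 called lower at day 2, against 22.3% and 30.4% of all genes. Psmb5, which carries the chymotrypsin-like site, covered 7.45% and 12.5% at day 0, 22.0% and 23.6% at day 2, and 23.7% and 11.2% at day 4. Its day 2 replicates were 9.57 to 16.1 percentage points above those of day 0, and day 4 overlapped both. Psmb1, a subunit without a peptidase site, rose from 0.783% and 2.31% to 8.36% and 4.03% at day 2, with 6.51% and 2.24% at day 4. Psmb2 was called lower at day 2, with 13.9% and 10.3% at day 0 against 3.74% and 0%, and its day 4 replicates of 0% and 10.3% were far apart. Psmb3 covered 6.26% and 17.4% at day 0, 6.52% and 8.30% at day 2, and 16.8% and 12.3% at day 4, where only the last step did not overlap. Psmb4, a non-catalytic subunit, held no PPS of any length on any day in the lists used here. A search of the genome found no second copy of its coding sequence at 90% identity or more.

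Of the 5 core subunits of specialised proteasomes, Psmb10 and Psmb8 held exonic PPSs. Psmb10, a peptidase subunit of the immunoproteasome, covered 9.33% in both day 0 replicates, 0% and 3.4% at day 2, and 0% and 3.05% at day 4, and was called lower at both later days. Psmb8, of the same complex, held 1 exonic PPS, in replicate 2 of day 0 (1.48%). Psmb9, the third such subunit, the thymus-specific Psmb11 and the testis-specific Psma8 held no exonic PPS on any day.

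Among the roles, the ATPases of the regulatory particle had the highest median coverage at each day except for the inhibitor gene at day 2, and the largest median decrease at day 2 (-10.9 percentage points). Their median was 22.6%, 10.3% and 17.7% at days 0, 2 and 4, and 5 of 6 were called lower at day 2 and 5 of 6 higher from day 2 to day 4, against 30.4% and 33.8% of all genes. Psmc5 was the most covered of the 50 genes at day 0, at 54.0% and 38.1% in the 2 replicates, against 16.6% and 21.4% at day 2 and 37.7% and 23.7% at day 4. Its 3 days did not overlap, although the lower day 0 replicate was only 0.430 percentage points above the higher day 4 replicate. Psmc6 fell by 13.4 to 17.1 percentage points, from 21.6% and 22.0% to 4.83% and 8.2%, and reached 9.66% and 9.09% at day 4. Psmc1 covered 12.4% and 10.4% at day 0, 6.73% and 5.90% at day 2, and 26.4% and 17.1% at day 4. It was the only ATPase gene called higher at day 4 than at day 0, by 4.76 to 16.0 percentage points, against 30.8% of all genes. In the whole lists 2 of the 6 ATPase genes rose over that interval. Psmc3, whose recurrent site is printed above, covered 17.4% and 13.5%, then 15.5% and 20.6%, then 13.5% and 16.6%, and no day stood apart.

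The other subunits of the regulatory particle were lower at day 2 in 5 of 11 cases and higher at day 4 than at day 2 in 8 of 11, against 30.4% and 33.8% of all genes. Psmd14, the deubiquitinase of the lid, went from 25.1% and 22.1% at day 0 to 11.5% and 11.6% at day 2 and 11.4% and 8.55% at day 4. It was the subunit of this particle called lower at each step. Its partner Psmd7 covered 20.5% and 20.1% at day 0, 2.70% and 11.2% at day 2, and 23.1% and 5.79% at day 4, a wide spread that left day 4 overlapping with the other days. The lid subunits Psmd3 and Psmd11 instead ended above day 0. Psmd3 covered 8.36% and 9.12% at day 0, 8.36% and 8.56% at day 2, and 18.4% and 12.3% at day 4. Psmd11 covered 1.79% and 3.13%, then 5.75% and 0.846%, then 7.49% and 6.27%. Psmd13 and Psmd8, also of the lid, were called higher at day 4 than at day 0 too. Psmd13 went from 9.39% and 10.5% to 14.4% and 16.1%, and Psmd8 from 9.91% and 3.73% to 14.6% and 10.6%. They are named here after their values were seen. Psmd3, Psmd11, Psmd13 and Psmd8 are the 4 of 11 genes (36.4%) called higher over that interval, against 30.8% of all genes. The 2 called lower (18.2%) were Psmd14 and Psmd6, against 25.4% of all genes. Psmd4, a ubiquitin receptor, held no PPS of any length on any day in the lists used here, and no second copy of its coding sequence was found.

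**Figure D2:**
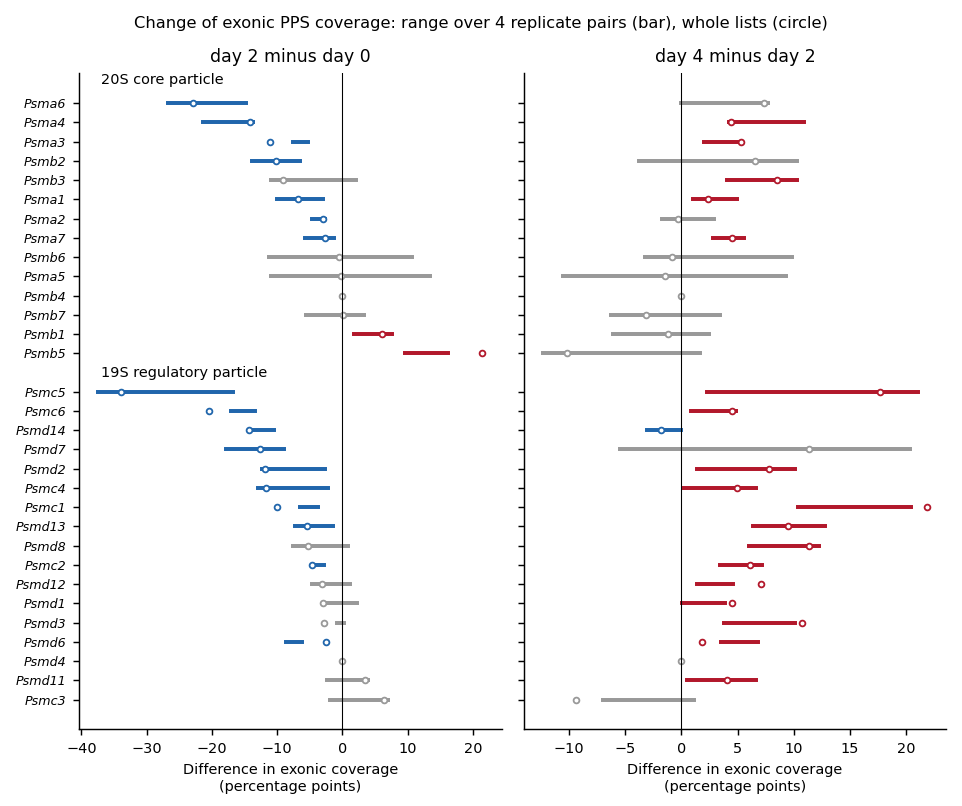
Change of exonic PPS coverage (percentage points) from day 0 to day 2 and from day 2 to day 4 in the 14 core and 17 regulatory subunit genes. Bars span the 4 replicate pairs (blue called lower, red called higher, grey overlapping) and circles give the whole lists, and 10 regulatory genes are blue on the left and 13 red on the right.

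Core and regulatory particles could be set side by side from these values. At day 2, 7 of 14 core genes and 10 of 17 regulatory genes were called lower than at day 0, against 30.4% of all genes. From day 2 to day 4, 5 of 14 core genes (35.7%) and 13 of 17 regulatory genes (76.5%) were called higher, against the 33.8% of all genes given above. At day 4 against day 0, none of the 14 core genes was higher and 6 were lower. Of 17 regulatory genes 5 were higher (29.4%) and 4 lower (23.5%), near the 30.8% and 25.4% of all genes. The median change from day 2 to day 4 was 1.2 percentage points in the core, 0.90 to 3.11 over replicate pairs, and 6.08 in the regulatory particle, 2.98 to 6.61 over replicate pairs. These 2 ranges overlap only slightly, and the difference between the particles was not tested. The core itself was split over this step. Its alpha genes had a median change of 4.39 percentage points, 2.44 to 4.91 over replicate pairs, and its beta genes -0.85, -1.85 to 2.48. Of the alpha genes 4 of 7 were called higher and of the beta genes 1 of 7, against 33.8% of all genes. The order of the medians at 1 day depended on which PPSs were used. The regulatory median exceeded that of the core by 5.03 percentage points at day 0 with all PPSs, but fell 0.23 below it with PPSs called in both replicates.

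The assembly factors and the proteins that cap or block the core were mixed. Psmd5, a chaperone of the regulatory base, covered 6.64% and 5.01% at day 0, 1.36% and 2.67% at day 2, and 0.844% and 0.913% at day 4, and was lower at each step. Psmd10 (gankyrin), another such chaperone, covered 5.17% and 8.30%, then 6.19% and 3.2%, then 5.92% and 0%, and Psmd9 covered 3.39% and 4.36%, then 2.52% and 1.95%, then 2.44% and 4.65%. Of these 2, only Psmd9 was called, as lower at day 2. The core chaperones Psmg3 and Psmg4 were called higher at day 2 and lower at day 4. Psmg3 covered 5.63% and 6.67% at day 0, 10.1% and 11.9% at day 2, and 2.97% and 4.49% at day 4. Psmg4, the shortest gene with 555 exonic nt, covered 13.9% and 12.6%, then 17.3% and 26.3%, then 9.01% and 0%, from 2, 2 and 1 PPSs. Its whole-list coverage did not rise at day 2 (26.5% at day 0 and 26.3% at day 2), and its difference between day 0 and day 4 was 0 with PPSs called in both replicates or with a score of 10 or more. Psmg1 was called lower at day 2, with 11.8% and 4.84% at day 0 and 3.72% in both replicates, and covered 4.91% and 0% at day 4.

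Activator genes moved in both directions. Psme3, the nuclear activator, covered 24.5% and 15.1% at day 0, 5.80% and 10.2% at day 2, and 20.7% and 18.9% at day 4. Psme4, the large nuclear activator, covered 11.7% and 7.73%, then 5.46% and 5.07%, then 22.0% and 12.5%, from 22, 17 and 31 exonic PPSs. Both were thus lower at day 2 and higher again at day 4, and Psme4 ended above day 0 by 0.799 to 14.2 percentage points. Psme1, an interferon-induced activator, was lower at both later days, with 9.42% and 9.23% at day 0, 1.95% and 0% at day 2, and 2.26% and 0% at day 4. Psme2b, a close relative of the activator gene Psme2, held no exonic PPS. The inhibitor gene Psmf1 covered 8.0% and 5.7%, then 7.79% and 9.39%, then 9.86% and 7.10%, and its days overlapped with both nucleases together. Psmc3ip, the meiotic factor, held 1 exonic PPS, in replicate 2 of day 2 (3.74%).

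At days 0 and 4 the proteasome genes were covered mainly through dsRNase calls, and at day 2 the nucleases were close. The median over the 50 genes of dsRNase minus ssRNase coverage was 5.44, 0 and 3.24 percentage points in the whole lists of days 0, 2 and 4. Over the 9550 genes it was 0, -1.10 and 0.14. At day 2 the median over all genes thus lay on the ssRNase side, and that over the 50 genes did not. The 50 genes held 0.408% to 0.657% of all covered exonic nucleotides in the 6 dsRNase sets and 0.209% to 0.282% in the 6 ssRNase sets, so that the 2 nucleases did not overlap. At day 0, mean coverage over the 50 genes was 7.97% and 8.57% in the dsRNase replicates and 3.57% and 3.34% in the ssRNase replicates, where all 9550 genes had 3.66% and 4.18% against 3.81% and 3.44%. At day 2 it was 4.22% and 3.53% with dsRNase and 2.8% and 3.76% with ssRNase. At day 4 it was 7.72% and 6.16% with dsRNase and 3.46% and 2.24% with ssRNase. In all genes the day 2 values were 3.05% and 2.03% with dsRNase and 3.47% and 4.31% with ssRNase, and the day 4 values 4.96% and 3.95% with dsRNase and 3.70% and 3.57% with ssRNase. The mean over the proteasome genes thus lay above that of all genes in each of the 6 dsRNase sets. The 9550 genes each have an exonic PPS, as do only 44 of the 50, and the ssRNase comparison turned on this. Over the 50 genes the ssRNase mean was below that of all genes in each of the 6 sets. Over the 44 it was above in both replicates of day 0 (4.06% and 3.79%) and in replicate 1 of day 4 (3.93%), and below in the others (3.18% and 4.28% at day 2, and 2.55% in replicate 2 of day 4).

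Both digests of a replicate came from the same culture, so they can be set against each other within it. At day 0, dsRNase coverage exceeded ssRNase coverage in 31 and 35 of the 50 genes in replicates 1 and 2, and the reverse held in 10 and 8. At day 2 the counts were 24 and 17 against 16 and 23, in opposite directions in the 2 replicates. At day 4 they were 30 and 34 against 9 and 3. Over both replicates, both dsRNase replicates exceeded both ssRNase replicates in 24 of the 50 genes at day 0 (48.0%), against 19.6% of the 9550 genes. The reverse held in 3 genes (6%), against 19.6%. At day 2, dsRNase exceeded ssRNase in 9 genes (18%), against 6.39%, and ssRNase exceeded dsRNase in 6 (12%), against 32.0%. At day 4 the counts were 21 (42.0%) against 23.9%, and 0 against 15.7%. Psmc5 shows the difference most plainly, with 54.0% and 38.1% in dsRNase and 6.53% and 0% in ssRNase at day 0. Psma6 covered 33.2% and 44.2% with dsRNase and 14.5% in both ssRNase replicates at that day. Of the exonic PPSs on members, 63.9%, 44.7% and 58.2% held dsRNase calls alone at days 0, 2 and 4, against 38.4%, 26.0% and 43.9% on all genes.

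**Figure D3:**
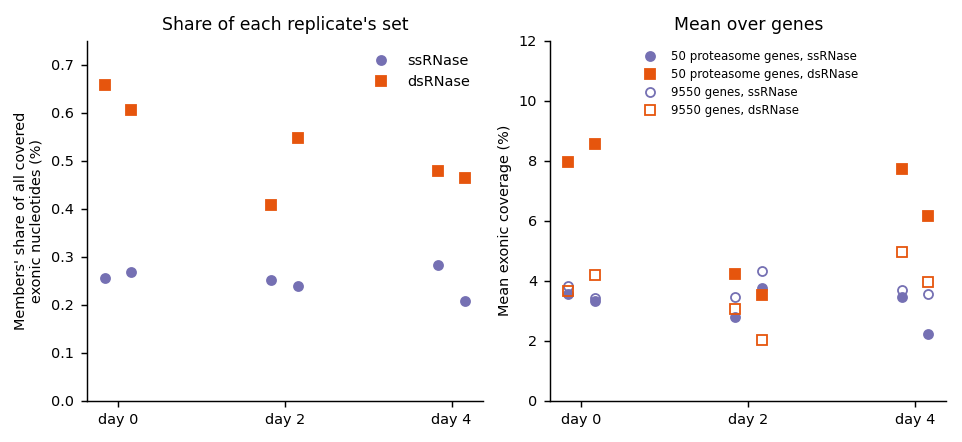
Left, share of all covered exonic nucleotides (percent) that lay in the 50 proteasome genes, for each nuclease and replicate by day. Right, mean exonic coverage (percent) over the 50 genes (filled) and over all 9550 genes (open), where only the dsRNase values of the proteasome genes lie above 6% and these are of days 0 and 4.

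The change between days differed by nuclease in the same way. With dsRNase calls, 26 of the 50 genes (52.0%) were lower at day 2 than at day 0, against 28.1%, and 2 were higher (4.00%), against 7.66%. With ssRNase calls, 9 were lower (18%), against 16.6%, and 6 were higher (12%), against 23.1%. From day 2 to day 4, 20 genes were higher with dsRNase (40%), against 34.9%, and 1 was lower (2.00%), against 6.27%. With ssRNase, 7 were higher (14.0%), against 16.9%, and 7 lower (14.0%), against 22.8%. From day 0 to day 4, dsRNase gave 16 lower (32.0%), against 17.4%, and 7 higher (14.0%), against 27.2%. There, ssRNase gave 12 lower (24.0%), against 21.4%, and 4 higher (8%), against 22.2%. The dsRNase sets held 34589 and 41265 calls at day 0, 41323 and 20927 at day 2, and 68632 and 52174 at day 4. At day 2 only 1 of them, that of replicate 2, held fewer calls than both of day 0. In exonic nucleotides of all genes, without PPSs of 20 to 40 nt, these sets covered 1.59e+06 and 1.78e+06 at day 0. They covered 1.36e+06 and 791404 at day 2, and 2.33e+06 and 1.87e+06 at day 4. By this measure both dsRNase sets of day 2 were smaller than both of day 0. The share of these nucleotides that lay in the 50 genes was 0.657% and 0.606% at day 0. It was 0.408% and 0.547% at day 2, and 0.478% and 0.464% at day 4. As shares, both later days thus lay below day 0, and day 4 lay within the spread of day 2. The part of set size in the decrease was not tested.

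Coding sequence carried most of the coverage. In the 44 genes with an exonic PPS, 28.3%, 17.5% and 26.4% of coding nucleotides were covered at days 0, 2 and 4, against 14.7%, 12.5% and 14.9% in all 9550 genes. In single replicates of the 44 genes this was 20.4% and 20.7%, then 12.3% and 11.1%, then 21.5% and 17.1%, so day 2 lay below the other days. The 5′ UTRs of the 44 genes were covered at 16.7%, 13.7% and 9.36%, and the 3′ UTRs at 9.58%, 4.84% and 11.3%. In 5′ UTRs the replicates of day 4 (8.68% and 5.99%) lay below those of day 0 (12.4% and 14.0%) and day 2 (11.3% and 13.0%). The authors describe such courses over detectable mRNAs in general, by another measure, PPS density near the start and stop codons. In their profiles 5′ UTR density was lower at day 4. Within coding sequence, downstream of the start codon, their density was similar at days 0 and 4 and lower at day 2. Their density after the stop codon was below that of day 0 at day 2 and above it at day 4. The dsRNase excess was in coding sequence and 3′ UTRs. At day 0, dsRNase and ssRNase PPSs covered 25.5% and 9.70% of coding sequence and 9.28% and 0.793% of 3′ UTRs, whereas they covered 8.79% and 13.0% of 5′ UTRs. In all genes (9493 with a 3′ UTR and 9254 with a 5′ UTR) the corresponding values were 9.43% and 9.52%, 4.81% and 3.13%, and 5.18% and 8.12%.

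**Figure D4:**
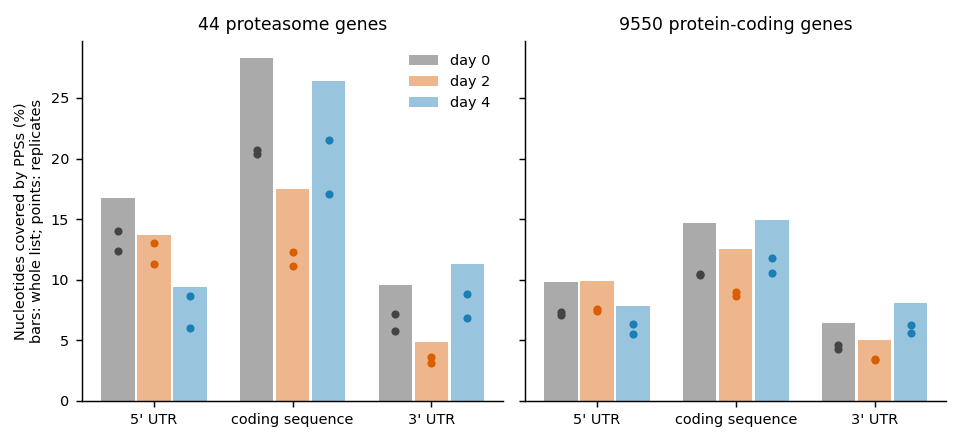
Share of nucleotides covered by PPSs (percent) in the 5′ UTR, coding sequence and 3′ UTR of 1 transcript per gene, by day. Bars are whole lists and points are replicates, and coding sequence of the 44 proteasome genes falls to 17.5% at day 2 between 28.3% and 26.4%.

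Single transcripts show what these shares are made of. On Psmc5, 9, 8 and 7 exonic PPSs were listed at days 0, 2 and 4. A dsRNase site ran from nt 270 to 504 of the coding sequence in both replicates of day 0. Shorter dsRNase sites met it at day 2, at 280 to 347 in both replicates and 441 to 491 in replicate 1 alone. Psmd14 held 12, 7 and 6 exonic PPSs, including a site over its 5′ UTR at days 0 and 2 and none there at day 4. Psmc1 held 6, 3 and 8, most of them from dsRNase.

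**Figure D5:**
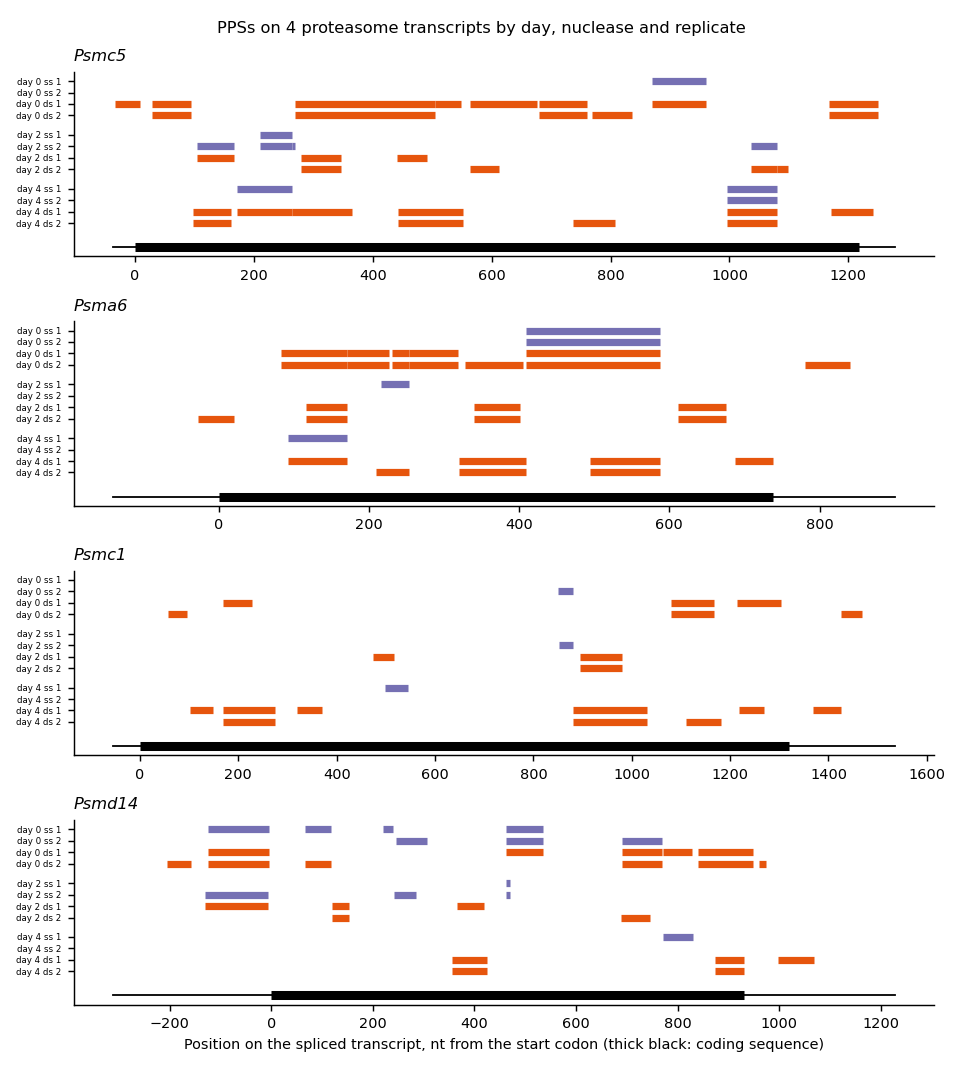
PPSs on the spliced transcripts of Psmc5, Psma6, Psmc1 and Psmd14, by day, nuclease (violet ssRNase, orange dsRNase) and replicate, in nt from the start codon, with the coding sequence as the thick black line. Psmc5 carried 9, 8 and 7 exonic PPSs at days 0, 2 and 4, most of them from dsRNase.

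Few sites lasted through the time course. The exonic PPSs on members numbered 294, 217 and 273 at days 0, 2 and 4, and 104, 66 and 95 of them held calls of both replicates. Merged over the days they formed 460 sites, of which 68 (14.8%, Wilson 95% interval 11.8% to 18.3%, for counting error only) were present at all 3 days. In all 9550 genes the share was 16.0%. Sites of day 0 alone made up 21.3% of the members' sites and those of day 2 alone 12%, against 19.4% and 16.8% in all genes. Of the day 0 PPSs on members 38.8% overlapped one of day 2 and 51.4% one of day 4, and in all genes the shares were 44.3% and 50.2%. The sites left out as ribosome-sized made up 26.1%, 37.3% and 25.2% of exonic PPSs on members at the 3 days and 21.6%, 32.6% and 21.6% on all genes, with the highest share at day 2 in both.

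Intronic coverage was low and, with both nucleases together, did not change in common. Its median over the 49 genes with introns was 0.193%, 0.243% and 0.257% at days 0, 2 and 4, with a median change of 0 between any 2 days, and over all genes it was 0.194%, 0.304% and 0.182%. From day 2 to day 4, dsRNase gave 13 of the 49 higher (26.5%) and 2 lower (4.08%), against 22.0% and 1.83% of all genes. There, ssRNase gave 2 higher (4.08%) and 8 lower (16.3%), against 7.02% and 22.2%. Psmb1 was the exception to the low coverage, with 8.15% and 11.1% of 20136 intronic nt covered at day 0, 11.8% and 12.3% at day 2, and 12.6% and 12.2% at day 4. The Psmb1 sites came mostly from ssRNase, which covered 7.88% to 12.3% of its introns across the 6 replicates, against 0% to 3.85% for dsRNase. Its exons, by contrast, were among the least covered at day 0. Psme3 introns were covered at 6.90% and 5.53% at day 0, 1.14% and 2.83% at day 2, and 1.33% and 0% at day 4, a decline beside exons that were covered again at day 4.

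The wider pathway was followed through 23 listed genes for assembly, transcription, ubiquitin supply and delivery, of which 22 matched a symbol and 20 held an exonic PPS. At day 2, 14 of the 22 were called lower than at day 0 and 2 higher, against 30.4% and 22.3% of all genes. At day 4, 10 were higher than at day 2 and 4 lower, against 33.8% and 19.3%. Against day 0 there were 6 higher and 8 lower, against 30.8% and 25.4%. Nfe2l1, the transcription factor that drives proteasome genes when proteasome activity is short, covered 27.6%, 17.3% and 17.3% in the whole lists of days 0, 2 and 4 and was lower at both later days. Uchl5, a deubiquitinase bound to the regulatory particle, covered 20.6%, 15.4% and 5.0%, and Pomp, the maturation chaperone of the core, covered 12.3%, 7.99% and 6.35%. Both were lower at each step. Vcp, the segregase that extracts ubiquitinated proteins, ran the other way, with 27.7%, 35.1% and 38.2%, and was higher at each step. Among the 50 proteasome genes, 15 had a further genomic copy of their coding sequence at 90% identity or more, with at most 7 copies for Psmb3, and the authors kept reads with up to 10 alignments, so sites of these 15 can be uncertain in origin. They are Psma2, Psma3, Psma4, Psma5, Psmb1, Psmb3, Psmb5, Psmb6, Psmc1, Psmd2, Psmd11, Psmd14, Psme1, Psme2 and Psme2b, whereas Psmc5, Psmc6, Psma6, Psmd3 and Psme4 are not among them.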

How the data were processed

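PIP-seq reads of 24 footprinting and structure-only libraries were trimmed (cutadapt 1.2.1), collapsed and aligned to mm10 (TopHat2 2.0.10, up to 10 alignments per read) by the authors, who called PPSs per replicate and nuclease against the structure-only library and merged the calls of a day into 1 list. The deposited score of each PPS (unit not given in the sources used here) served only to rank and filter sites. Groups came from the sample labels. Each call was assigned to its replicate and nuclease through the call names of the lists.

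From these lists, covered nucleotides per gene were counted on the same strand with GENCODE M21 (python 3.11.15, numpy 2.4.6, pandas 2.3.3) after PPSs of 20 to 40 nt were left out. Exons were the union over transcripts, and introns the remainder of the gene outside exons of any gene on that strand. UTRs and coding sequence came from the transcript with the longest coding sequence. Sequences were read from GRCm38 with pysam 0.24.0, where no PPS ran past a chromosome end. Copies were sought with blastn 2.17.0 (90% identity or more over at least 50% of the coding sequence). No test across genes was run, and a gene is called by non-overlap of replicates. The counting was tested on simulated data. The genes and lists were chosen with earlier results of these data known. Genes are named by rule: within each role the 3 with the largest change from day 0 to day 4, the 2 with the highest mean coverage, those without exonic PPS, and Psmc3ip. Alternatives varied PPS length, score, replicate support, list size, nuclease, annotation, scaling and the gap between replicates.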

Additional observations from a re-analysis of the deposited data

Results flagged for a closer look

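In 7 genes, all 4 replicate pairs of one nuclease moved up and all 4 of the other moved down between 2 days. The difference between the nucleases was not tested in any of them. By step, 2 of the 50 genes met this pattern for day 2 minus day 0 and 2 for day 4 minus day 0. For day 4 minus day 2 it was met by 4, and Psmg3 is counted both there and at the first step. Among the 9550 genes the shares at these steps were 3.96%, 3.56% and 5.35%. Whether the proteasome genes exceed these shares was not tested. From day 0 to day 2, the ssRNase change minus the dsRNase change was 13.3 percentage points in Psmd3, where ssRNase coverage went from 1.83% in both replicates to 6.89% and 5.4% and dsRNase coverage from 6.52% and 9.12% to 2.96% and 3.16%. It was 10.2 in Psmg3, where ssRNase coverage went from 2.45% and 1.62% to 10.1% and 11.9%. From day 0 to day 4 it was -5.85 in Psmb1 and 15.8 in Psmc4. From day 2 to day 4 it was -22.6 in Psma5, where ssRNase coverage went from 18.2% and 15.0% to 8.02% and 4.16% and dsRNase coverage from 11.8% and 0% to 20.1% and 15.2%. It was -10.6 in Psmc6, -10.9 in Psmd12 and -10.6 in Psmg3 over the same step.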

How the results depend on the processing

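The median change from day 0 to day 2 (-3.00 percentage points) was -3.33 with all PPS lengths, -1.54 with PPSs called in both replicates, -2.14 at a score of 10 or more, 0 with ssRNase calls, -5.13 with dsRNase calls, and -7.24 on the longest-coding transcripts. That from day 0 to day 4 (-1.26) was 0 with PPSs of both replicates, with a score of 10 or more and with ssRNase calls. That from day 2 to day 4 (0.97) was 2.37 with dsRNase calls and 2.95 on the longest-coding transcripts. Removing 1 replicate lowers the coverage of its own day by construction, and gave -6.03 to -0.41, -3.60 to 0.41 and -0.33 to 5.06 for the 3 changes, the last 2 with a change of sign. A gap of at least 5 percentage points reduced the calls to 1 higher and 11 lower at day 2, 0 higher and 6 lower at day 4 against day 0, and 5 higher and 2 lower from day 2 to day 4. The shares of all genes were then 2.82% and 8.04%, 8.23% and 7.03%, and 9.05% and 2.74%. A score of 10 or more gave 7 higher at day 2 (30% of all genes), 15 higher at day 4 against day 0 (6 before, and 38% of all genes) and 8 lower from day 2 to day 4 (24.9% of all genes). Coverage relative to all genes gave 7 higher at day 2, and 13 higher and 7 lower from day 2 to day 4. The core median minus the regulatory median was -1.27 with ssRNase, -2.07 with dsRNase and 0.23 with PPSs of both replicates at day 0 (-5.03 before), -4.02 with ssRNase and -0.26 with PPSs of both replicates at day 2 (1.24 before), and -0.57 with PPSs of both replicates at day 4 (-5.22 before). Other causes of these shifts were not tested.

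Of 15 named genes called between day 0 and day 4, 5 changed sign under an alternative. Psmd13 and Psmd8 were not varied singly. Psma3 was 0.23 and Psmc5 6.17 with ssRNase calls, and Psmd3 was -0.64 with dsRNase calls. Leaving out 1 replicate gave -10.2 to 1.23 in Psma3 and -35.2 to 4.59 in Psmc5, above 0 without replicate 1 of day 0, and -1.03 to 19.7 in Psmc1 and -3.04 to 17.3 in Psme4, below 0 without replicate 1 of day 4. Setting aside PPSs of both nucleases leaves the nuclease difference unchanged by construction, and a stricter overlap rule, 50% of the shorter PPS, gave 12.6% of sites at all 3 days. No paired analysis was possible because the values come from no test and, between days, a shared replicate number is not stated to mark a shared culture. Within a day the nucleases are paired by culture, and their differences by replicate are given with the nuclease comparison. The number of replicates and the unknown read depth limit the precision of every value.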
